A study of Mus musculus with 16 samples.

Results

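The genes described here are 36 members of the primary cilium and Hedgehog pathway, chosen by name out of 19057 genes with a named probe on the array: the intraflagellar transport (IFT) complexes, the BBSome, the transition zone and basal body, 3 ciliary small GTPases, the Hedgehog receptor Ptch1 and transducer Smo, and the factors Gli1 and Gli2. Every probe annotated to a member was kept separate, which gave 72 probes for 34 genes, while Arl13b and Cep290 were not analysed here. RNA from brains of E18 mouse embryos was measured on 16 one-colour Illumina bead arrays, 1 sample on each. The 8 HeCo arrays carry the label HeCo mutant, and the 8 wild-type arrays are labelled control. Both groups share the strain NOR/CD-1, and the labels give no other allele, treatment, sex or zygosity. HeCo mice have a spontaneous mutation of Eml1, a microtubule-associated protein, and a band of misplaced neurons under the cortex. Whether each sample came from its own animal is not stated, so the p-values cover the spread between samples, which may be technical.

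Eml1 itself separated the groups as labelled. The brighter Eml1 probe (ILMN_1214866) was detected on 8 of 8 wild-type and 0 of 8 HeCo arrays, and a dimmer one (ILMN_3137207) on 0 of 8 and 8 of 8. The arrays also held forebrain RNA, since 15 of 20 listed forebrain markers were measured, among them Emx1, Tbr1, Neurod2 and Dlx2. On HeCo 7 and HeCo 16 the markers of midbrain, hindbrain and diencephalon stood apart: their mean over 20 measured genes differed from the wild-type mean by -2.20 and -1.84 on the log2 scale, against -0.26 to -0.0095 on the other 6 HeCo arrays and -0.44 to 0.22 on wild-type arrays. Of those 20 genes, 12 and 10 were not detected there. Several member values are also given without these arrays. Mean deposited signals ran from 374.9 to 597.9 per array, and 17694 to 19553 of 45281 probes were detected. Precision depends on the number of arrays and on the spread of each probe between them.

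The primary cilium is a microtubule-based antenna that most cells, radial glia of the developing cortex included, grow from a basal body derived from a centriole. IFT trains carry cargo along it, complex B mainly towards the tip and complex A mainly back to the base, while the BBSome ferries membrane proteins and the transition zone acts as a gate at the base. In vertebrates Hedgehog signals pass through this organelle: without ligand Ptch1 holds Smo inactive, and with ligand Smo enters the cilium and Gli factors are turned into activators. Gli1 and Ptch1 are themselves targets of the pathway. Mutant Eml1 has been described in later work to disturb the primary cilia of cortical progenitors, and RPGRIP1L, the product of a member gene, as a partner of EML1. The comparison asks whether transcripts of this machinery differed in level between mutant and wild-type brain.

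None of the 36 chosen genes had a probe that passed the threshold in HeCo. Of the 72 probes, 43 were detected on at least 8 of the 16 arrays and tested, 28 were detected on no array and 1 (of Rab23) on a single HeCo array. The tested probes represent 27 of the 36 genes, and 36 of them were detected on every array. Differences are the HeCo mean minus the wild-type mean of log2 normalized signal, and were tested with limma with Benjamini-Hochberg adjustment over all 18532 tested probes and a threshold of 0.05. By limma 0 of 43 member probes passed, where 0.0863% of all tested probes did (16 probes, 0.054% higher and 0.0324% lower in HeCo). At an unadjusted p under 0.05 there were 2 member probes, 4.65% of the 43, against 6.98% of all tested. Of the 43 differences 20 were positive and 23 negative, with a median of -0.012, beside a median over all tested probes of -6.26e-05.

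The intervals show how large a change these arrays leave room for. The 95% intervals of all 43 probes lay between -0.5 and 0.5, and those of 24 probes between -0.25 and 0.25. Their outermost bounds were -0.42, for an Ift140 probe, and 0.33, for a Tctn2 probe. Of all 18532 tested probes, 17761 had intervals between -0.5 and 0.5, and 7196 between -0.25 and 0.25. Each interval is for a single probe and was not adjusted for the number of probes. The background correction adds an offset, which shrinks differences of dim probes. In RNA of whole tissue, fewer cells of a type and less RNA per cell cannot be told apart.

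**Figure D1:**
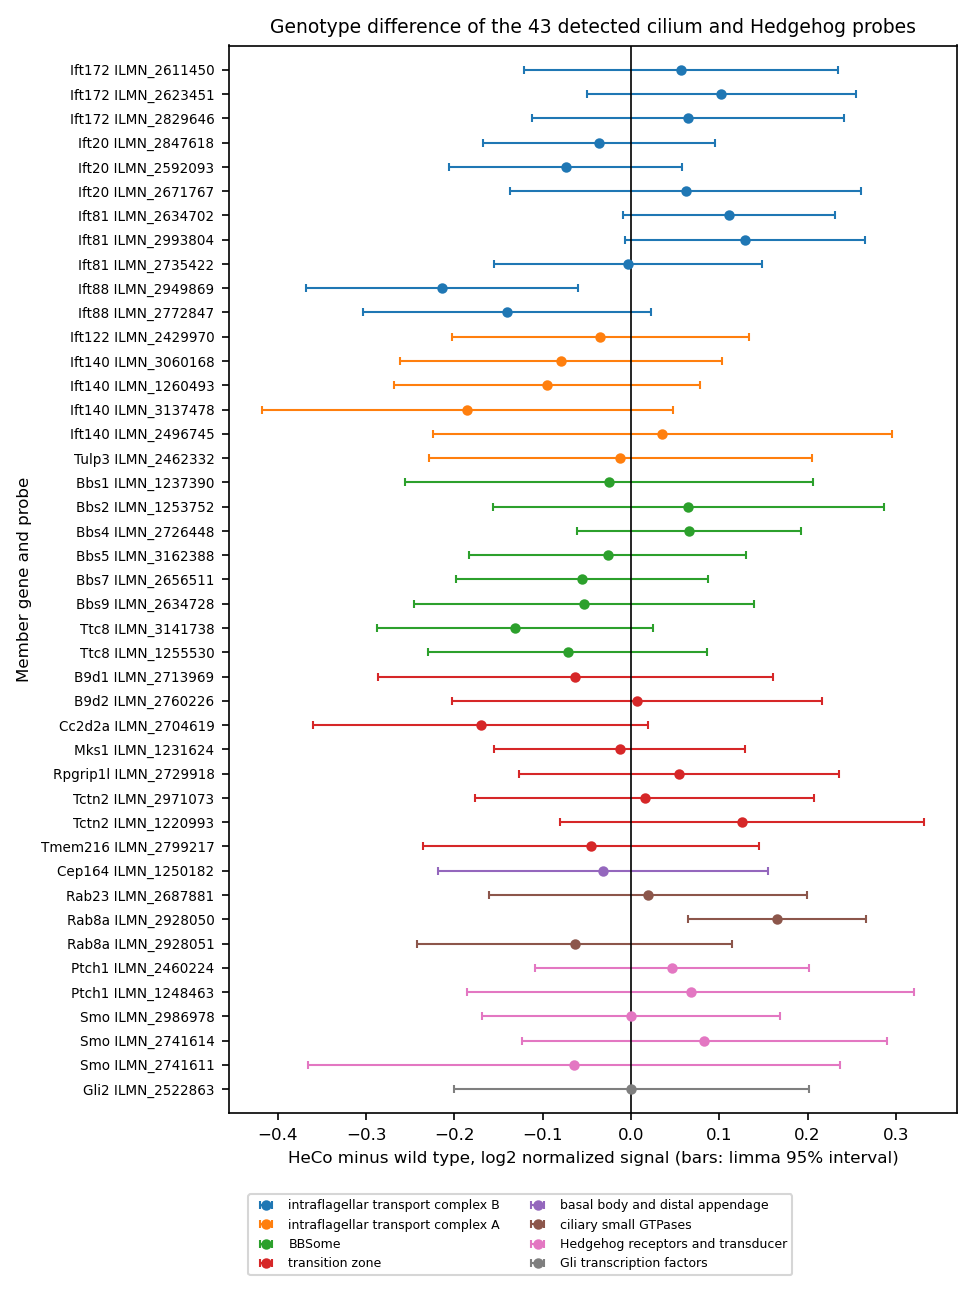
Each point is the HeCo minus wild type difference of 1 tested probe in log2 normalized signal (x axis), with its limma 95% interval (n = 8 arrays in each group), and colours mark the protein complexes. Only the intervals of Rab8a ILMN_2928050 and Ift88 ILMN_2949869 leave out 0, and neither probe passed after adjustment.

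In IFT complex B, which drives outward transport, 4 of 6 genes were measured by 11 probes, 6 with positive and 5 with negative differences and a median of 0.06. Ift88, a core subunit without which most cells form no normal cilium, had the lowest difference of all members. Its brighter probe (ILMN_2949869) ran from 7.38 to 7.69 in wild type with a median of 7.55, and from 7.15 to 7.53 in HeCo with a median of 7.34. All 8 HeCo arrays were below the wild-type mean, though the groups overlapped. The means were 7.54 ± 0.12 (SD, n = 8) and 7.33 ± 0.13 (SD, n = 8), a difference of -0.21 (SE 0.07), with a limma adjusted p of 0.58 and an exact permutation p of 0.00435 (two-sided, 12870 splits). The exact p was not adjusted, and the probe was picked for it as 1 of the 8 member probes with the smallest limma p. Its dimmer probe (ILMN_2772847) ran from 6.26 to 6.53 in wild type and from 6.00 to 6.47 in HeCo, a difference of -0.14 (SE 0.08, limma adjusted p = 0.752), with 7 of 8 HeCo arrays below the wild-type mean.

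The lowest values of both Ift88 probes were those of HeCo 7 and HeCo 16, the arrays with few region markers. There the brighter probe read 7.15 on each and the dimmer one 6.00 and 6.12. Without these arrays the differences were -0.16 (SE 0.08) and -0.07 (SE 0.08). Markers of ependyma and motile cilia, another source of cilium transcripts, were measured for 14 of 25 listed symbols by 19 probes, 5 with a positive and 14 with a negative difference and a median of -0.10. By limma 0 of these passed, and 4 (21.1%) had an unadjusted p under 0.05, against 6.98% of all tested probes. Their mean level ran from 6.71 to 7.02 in wild type and from 6.60 to 6.98 in HeCo. HeCo 7 was the lowest, at -0.25 from the wild-type mean. HeCo 16 was at -0.05, inside the wild-type range of -0.15 to 0.16, and HeCo 6, HeCo 14 and HeCo 15 were at -0.18, -0.19 and -0.14. Foxj1, the master regulator of these markers, differed by -0.18 (SE 0.10). The part of either marker list in the Ift88 values was not tested.

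Ift81, which binds tubulin cargo together with Ift74, had a positive difference at 2 of its 3 probes. ILMN_2993804 ran from 9.02 to 9.26 in wild type (median 9.15) and from 9.05 to 9.45 in HeCo (median 9.30), with a difference of 0.13 (SE 0.07). ILMN_2634702 ran from 9.67 to 9.91 and from 9.79 to 9.99, with a difference of 0.11 (SE 0.06). For each, 7 of 8 HeCo arrays exceeded the wild-type mean, and the limma adjusted p was 0.731. The remaining probe (ILMN_2735422) differed by -0.00364 (SE 0.07), too near 0 to give a direction.

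Ift20, the subunit that also sits at the Golgi, had 3 probes with differences of -0.07 (ILMN_2592093, SE 0.06), -0.04 (ILMN_2847618, SE 0.06) and 0.06 (ILMN_2671767, SE 0.10). The genotypes overlapped at each of these probes. Ift172, a large peripheral subunit, had 3 probes between 0.06 and 0.10 (SE 0.07 to 0.09), none with a limma adjusted p under 0.81. Ift46 (1 probe) and Ift57 (4 probes) were detected on no array, so no level can be given for them.

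In IFT complex A, which serves return transport and the entry of membrane proteins, 5 of 6 probes had negative differences, with a median of -0.06. Most of these belonged to Ift140, a core subunit. Its probes differed by -0.19 (ILMN_3137478, SE 0.11), -0.10 (ILMN_1260493, SE 0.08), -0.08 (ILMN_3060168, SE 0.09) and 0.04 (ILMN_2496745, SE 0.13). The probe with -0.19 ran from 5.14 to 5.69 in wild type and from 4.75 to 5.60 in HeCo, where it was detected on 7 of 8 arrays. The probe of opposite sign was detected on 6 of 8 wild-type and 5 of 8 HeCo arrays, so its size is uncertain. Ift122 had -0.03 (SE 0.08), and Tulp3, which links complex A to ciliary receptors, had -0.01 (SE 0.10). Both probes of Wdr35 were undetected on all arrays.

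The BBSome, whose human genes are mutated in Bardet-Biedl syndrome, was measured for all 7 of its listed genes. Of 8 tested probes 2 had positive and 6 negative differences, with a median of -0.04 and a range of -0.13 to 0.07. Ttc8 (BBS8) had the smallest p among them. Its probe ILMN_3141738 ran from 7.30 to 7.66 in wild type (median 7.55) and from 7.25 to 7.54 in HeCo (median 7.40), a difference of -0.13 (SE 0.08, limma adjusted p = 0.765). Its other probe had -0.07 (SE 0.08), and 7 and 5 of 8 HeCo arrays lay below the wild-type mean. Bbs4 (ILMN_2726448), an adaptor subunit, had the lowest spread of any tested member, with an SD of 0.10 over 16 arrays. Wild-type arrays averaged 9.29 ± 0.07 (SD, n = 8) and HeCo arrays 9.35 ± 0.11 (SD, n = 8), a difference of 0.07 with a 95% interval of -0.06 to 0.19. Bbs1, Bbs5, Bbs7 and Bbs9 lay between -0.06 and -0.02, and Bbs2 had 0.06 (SE 0.11).

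At the transition zone 7 of 10 genes were measured by 8 probes, 4 positive and 4 negative, with a median of -0.00321. Cc2d2a, a scaffold of this gate mutated in human Meckel and Joubert syndromes, ran from 7.15 to 7.81 in wild type (median 7.46) and from 7.11 to 7.57 in HeCo (median 7.27). Its difference was -0.17 (SE 0.09, limma adjusted p = 0.737), with 6 of 8 HeCo arrays below the wild-type mean. Rpgrip1l, the gate component described as a partner of EML1, was measured by 1 of 3 probes (ILMN_2729918). It ran from 6.05 to 6.46 in wild type (median 6.27) and from 5.98 to 6.56 in HeCo (median 6.35), a difference of 0.05 with a 95% interval of -0.13 to 0.24. The groups overlapped over nearly their whole range, and the lowest HeCo value was again on HeCo 16. Without HeCo 7 and HeCo 16 the difference was 0.14 (SE 0.08, limma adjusted p = 0.888). Among the description sample numbers 1 to 8 the difference was -0.08 (SE 0.12), and among 9 to 16 it was 0.19 (SE 0.14).

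The Meckel syndrome gene Mks1 (-0.01, SE 0.07) and its B9-domain partners B9d1 (-0.06, SE 0.11) and B9d2 (0.00660, SE 0.10) had differences near 0. So did the membrane protein Tmem216 (-0.05, SE 0.09) and the brighter probe of Tctn2 (0.02, SE 0.09). The dimmer Tctn2 probe (ILMN_1220993) had 0.13 (SE 0.10) and was detected on 6 of 8 wild-type and 7 of 8 HeCo arrays. Tctn1 (3 probes) and Tmem67 (6 probes) were detected nowhere. Of the basal body genes, Cep164, a distal appendage protein that docks the basal body at the membrane, had -0.03 (SE 0.09), and the 1 probe of Ofd1 was not detected.

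Many members share a promoter element that their selection did not use. Cilium genes are known to carry the X-box, bound by RFX factors, and its core GTTGCC was searched on both strands of the RefSeq promoter windows of GRCm38.p6 (250 bases before to 50 after each start). It was found for 15 of the 32 members with a window (46.9%), beside 14.3% of 17492 protein-coding genes. Most of the 15 matched only in the 50 bases after the start, among them Ift88 and Ift172, while Bbs7 and Mks1 matched before it. The full X-box palindrome, which holds the core in both sequences below, was found for Bbs7, Mks1 and Tctn1, 9.38% of the members and 0.497% of protein-coding genes. The sequences before the start of Bbs7 (chr3:36613467-36613540, minus strand) and Mks1 (chr11:87853161-87853214, plus strand) are shown because they hold the palindrome upstream of the start, in capitals:
Bbs7: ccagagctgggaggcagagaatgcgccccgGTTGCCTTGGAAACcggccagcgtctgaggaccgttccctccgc
Mks1: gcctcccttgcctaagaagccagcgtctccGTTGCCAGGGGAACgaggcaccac
The transcripts of these genes differed by -0.06 (SE 0.07) and -0.01 (SE 0.07) between the genotypes. The Gli-binding sequence GACCACCCA matched no member window and 0.212% of protein-coding genes, and Gli1 had no window. At so low a share, 0 matches among 32 members cannot show that they lack this sequence more than other genes. All matches given here are descriptions of sequence and not of binding.

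Among the small GTPases, Rab8a gave the clearest separation of all members, at 1 of its 2 probes. Rab8a brings membrane vesicles to the cilium base and also serves other membrane traffic. The brighter probe (ILMN_2928050) ran from 11.42 to 11.53 in wild type (median 11.46) and from 11.55 to 11.76 in HeCo (median 11.62). Every HeCo array was above every wild-type array. Groups without overlap, in either direction, were seen at 1 of 43 member probes and at 0.124% of all tested probes (23 probes). The means were 11.47 ± 0.04 (SD, n = 8) and 11.64 ± 0.07 (SD, n = 8), a 1.12-fold difference (log2 difference 0.17, SE 0.05, 95% interval 0.06 to 0.27). The exact permutation p was 0.000155, the smallest that 12870 splits allow, and the limma adjusted p was 0.407. The exact test was run on the 8 member probes with the smallest p and was not adjusted, so it stands for the separation of these arrays alone. Apart from this probe and the brighter Ift88 probe, its p-values ran from 0.0208 to 0.124.

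The other Rab8a probe did not share this separation. ILMN_2928051 ran from 8.75 to 9.11 in wild type (median 8.89) and from 8.51 to 9.13 in HeCo (median 8.91), with a difference of -0.06 (SE 0.09). Its 95% interval of -0.24 to 0.11 overlaps that of the brighter probe. Which transcript either probe reads was not analysed here. Without HeCo 7 and HeCo 16 the brighter probe differed by 0.15 (SE 0.05). Rab23, a negative regulator of Hedgehog signalling in the mouse, had 0.02 (SE 0.09) at its detected probe. Of its 2 further probes, one was detected on 1 HeCo array and the other on none.

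**Figure D2:**
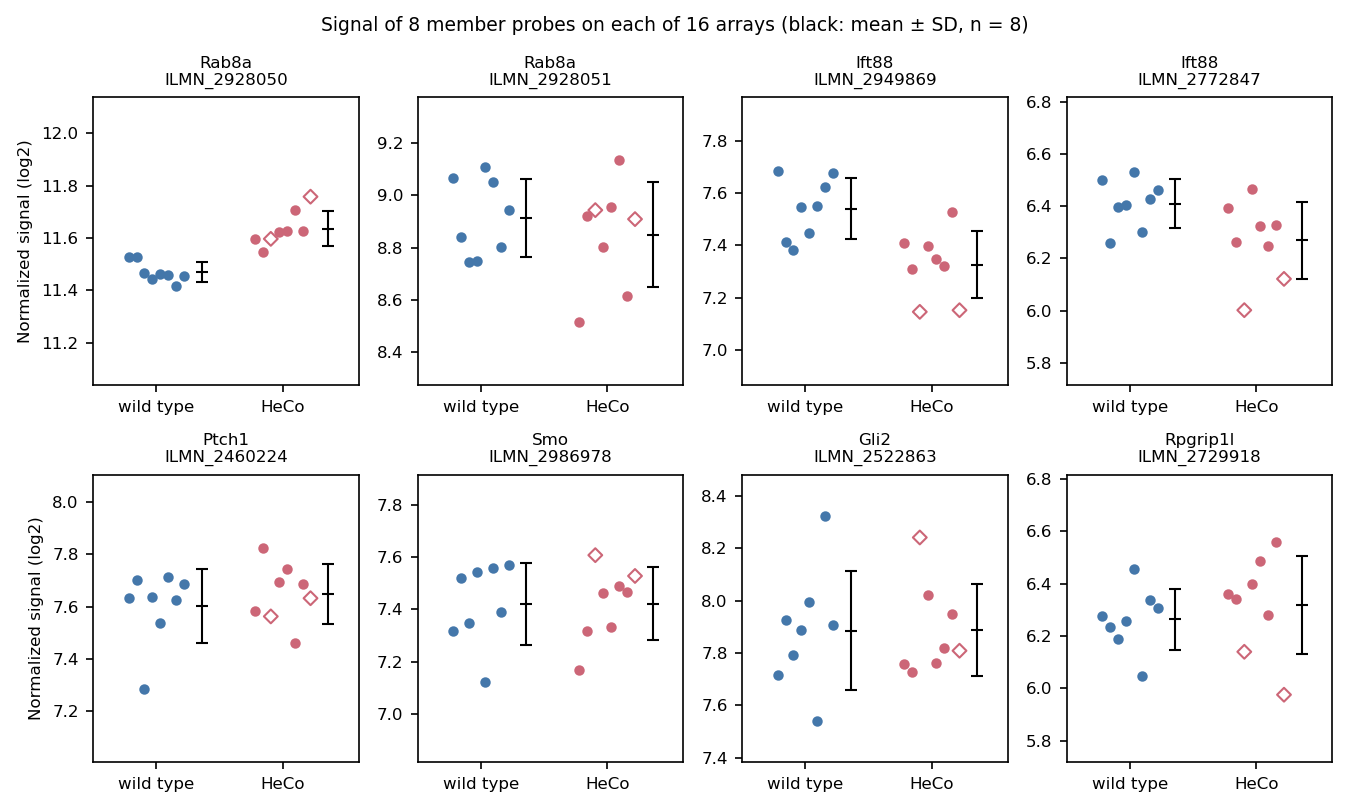
Normalized log2 signal of 8 member probes on each array (y axis, a window of 1.1 log2 units in every panel), wild type in blue and HeCo in red, with open diamonds for HeCo 7 and HeCo 16 and black bars for mean ± SD (n = 8). The brighter Rab8a probe separates the groups, from 11.42 to 11.53 against 11.55 to 11.76, and all other panels overlap.

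The Hedgehog genes did not separate the genotypes. Ptch1, receptor and target of the pathway, ran from 7.29 to 7.71 in wild type (median 7.64) and from 7.46 to 7.82 in HeCo (median 7.66) at its brighter probe (ILMN_2460224). Its difference was 0.05 (SE 0.07, 95% interval -0.11 to 0.20, limma adjusted p = 0.924). The dimmer Ptch1 probe (ILMN_1248463) was detected on 4 of 8 wild-type and 5 of 8 HeCo arrays and had 0.07 (SE 0.12). As a fold change, the 95% interval was 0.927 to 1.15 at the brighter probe and 0.879 to 1.25 at the dimmer probe.

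Smo, the transducer that Ptch1 restrains, was measured by 3 of its 4 probes. The brightest (ILMN_2986978) ran from 7.12 to 7.57 in wild type (median 7.45) and from 7.17 to 7.61 in HeCo (median 7.46). Its mean was 7.42 in both groups, a difference of 0.000392 (SE 0.08) with a 95% interval of -0.17 to 0.17. ILMN_2741614 had 0.08 (SE 0.10) and ILMN_2741611 had -0.06 (SE 0.15). The latter had the highest spread of any tested member, an SD of 0.32 over 16 arrays, and was detected on 6 of 8 arrays of each group. Without HeCo 7 and HeCo 16 its difference was -0.18 (SE 0.15).

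Gli2, the main activator at the start of the Hedgehog response, ran from 7.54 to 8.32 in wild type (median 7.90) and from 7.73 to 8.24 in HeCo (median 7.81). Its highest values were on wild type 11 (8.32) and HeCo 7 (8.24), so the spread ran within both groups. The difference was 0.00054 (SE 0.10, 95% interval -0.20 to 0.20). Gli1, the target whose transcript is the usual reporter of pathway activity, was detected on no array at its 1 probe, and so gives no reading in either genotype.

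Levels of the Hedgehog genes were also set against each other across arrays. Of 3 pairs among the brightest probes of Gli2, Ptch1 and Smo, none was related over all 16 arrays: Pearson's r was -0.12 for Gli2 and Ptch1, 0.14 for Gli2 and Smo and 0.16 for Ptch1 and Smo, and Spearman's rho was -0.27, 0.24 and 0.11. All were far from the threshold (permutation test, 100000 resamples, two-sided, lowest p = 0.304, lowest adjusted over the 3 pairs 0.552). Without the 2 arrays farthest from the median of the first gene, r was -0.09, -0.00463 and 0.25. Within genotypes (n = 8, exact permutation test, 6 relations) Gli2 with Smo in HeCo had the highest r, 0.71, and a rho of 0.74 (p = 0.0205 and 0.0458, adjusted 0.123 and 0.138), against an r of -0.25 in wild type. HeCo 7 held the highest HeCo value of both genes, 8.24 for Gli2 and 7.61 for Smo. The relation within HeCo was not tested without that array. Ptch1 with Smo in wild type had the highest rho, 0.76, and an r of 0.53 (exact permutation p = 0.0368 and 0.257, adjusted 0.138 and 0.645), against a rho of -0.55 in HeCo. None of the 6 passed after adjustment.

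Single member values lay as far from the wild-type mean of their probe as -0.65 (Ift140 ILMN_3137478 on HeCo 15) and 0.62 (Ptch1 ILMN_1248463 on HeCo 14). On HeCo 7 the Ift88 probes deviated by -0.39 and -0.41. The median deviation over the 43 probes, in which values above and below the mean cancel, lay between -0.027 and 0.038 on wild-type arrays and between -0.021 and 0.044 on HeCo arrays. HeCo 7 and HeCo 16, which stood apart in region markers, had -0.00833 and -0.021. HeCo 7 held the highest value of 3 probes and the lowest of 4, and HeCo 16 of 2 and 3. Without both, 0 member probes passed, 4 had an unadjusted p under 0.05, and the median difference was -0.013. Title numbers run in alternating blocks of 4 arrays of 1 genotype, with no meaning stated. Among title numbers 1 to 8, and again among 9 to 16, with 4 arrays of each genotype in either set, 0 members passed. The brighter Rab8a probe had 0.10 (SE 0.07) and 0.23 (SE 0.07) there, and the brighter Ift88 probe -0.19 (SE 0.11) and -0.24 (SE 0.12). Within the lower and higher sample numbers of the descriptions, also with 0 members called, these values were 0.19 and 0.14 for Rab8a and -0.24 and -0.18 for Ift88.

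**Figure D3:**
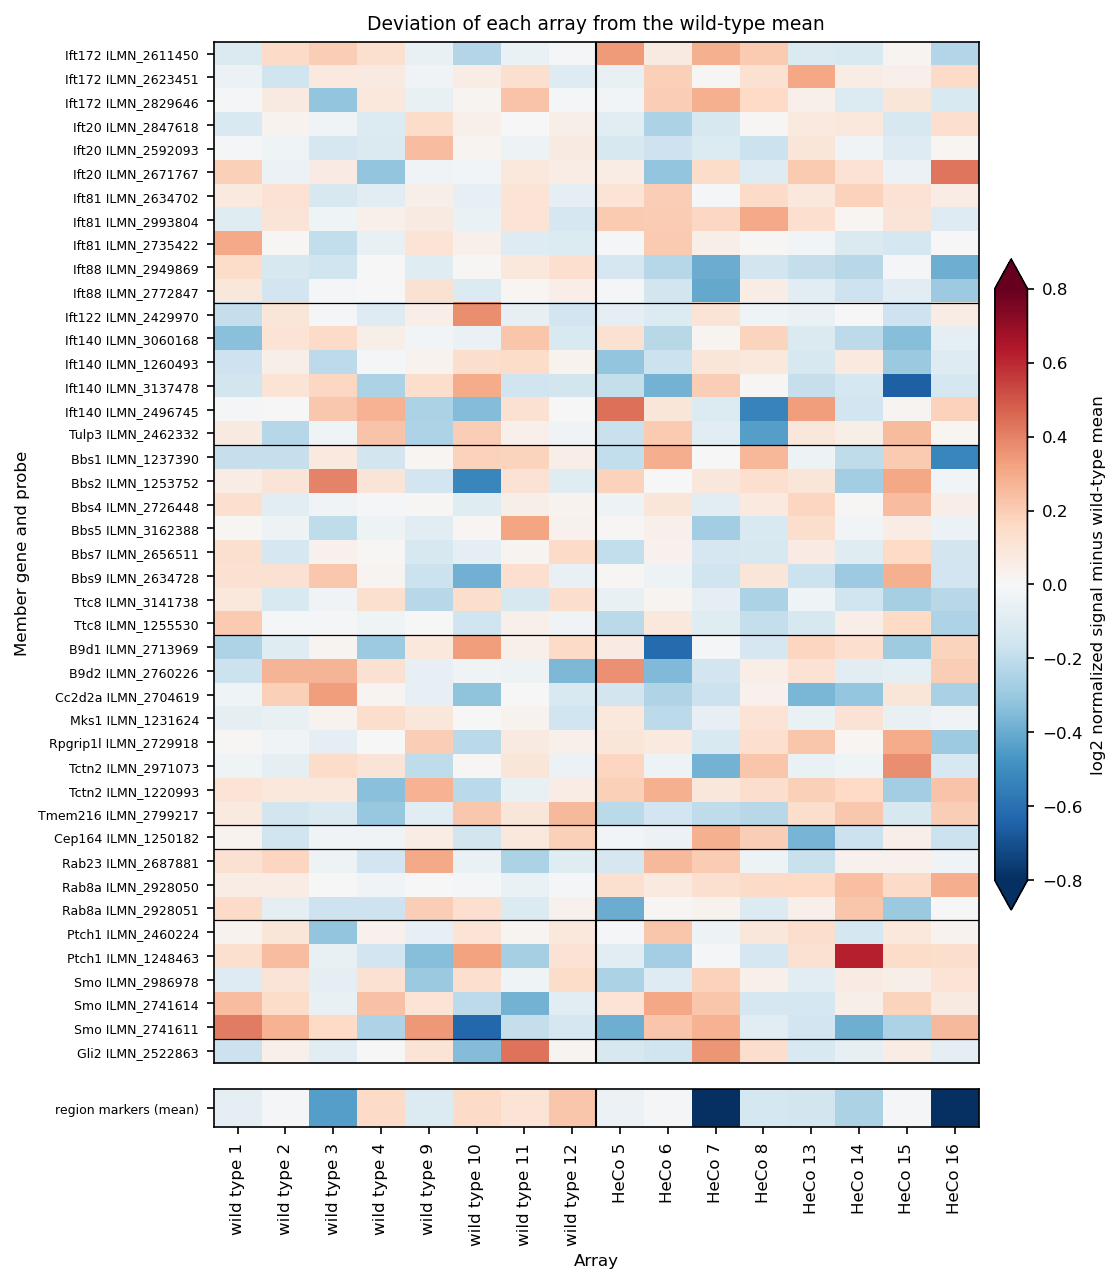
Colours give the log2 signal of each tested member probe (rows, grouped by complex between black lines) on each array (columns, wild type left and HeCo right of the vertical line) minus that probe's wild-type mean. The strip beneath shows the mean of the midbrain, hindbrain and diencephalon markers, which differs from wild type by -2.20 and -1.84 on HeCo 7 and HeCo 16 (past the end of the colour scale), where the members show no shift of that size.

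Among other genes of the same machinery 1 probe passed, of 44 in the transition zone and basal body list, where 0.0863% of all tested probes did. Of further IFT and ciliary motor genes, 15 of 24 were measured by 25 probes, 15 positive and 10 negative with a median of 0.01. By limma 0 of them passed, and 1 (4%) had an unadjusted p under 0.05, against 6.98% of all tested probes. Their smallest p-values belonged to the complex B subunits Ttc30b (0.20, SE 0.08) and Ift27 (-0.13, SE 0.07). Of further BBSome and ciliary trafficking genes, 12 of 16 were measured by 27 probes, 11 positive and 16 negative with a median of -0.03. By limma 0 of them passed, and 4 (14.8%) had an unadjusted p under 0.05. There the recycling GTPase Rab11a, which acts upstream of Rab8a in ciliary membrane delivery, had 0.32 (SE 0.08, limma adjusted p = 0.26), and the chaperonin-like Bbs10 had 0.27 (SE 0.09). Of further transition zone and basal body genes, 24 of 32 listed symbols were measured by 44 probes, 25 positive and 19 negative with a median of 0.02. Of these probes 7 (15.9%) had an unadjusted p under 0.05 against 6.98% of all tested probes. One gene, Wdpcp, a planar cell polarity effector at the cilium base, rose at 1 of 2 probes (log2 difference 0.52, SE 0.10, limma adjusted p = 0.0319). Its other probe had 0.40 (SE 0.09, adjusted p = 0.099), and without HeCo 7 and HeCo 16 no gene of this list passed. Fuz, a partner of Wdpcp in the same effector complex, had -0.24 (SE 0.11, limma adjusted p = 0.689).

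Further Hedgehog genes had mostly negative differences, none of which passed. Of 26 listed symbols 15 were measured by 19 probes, 5 positive and 14 negative, with a median of -0.12, and -0.11 without HeCo 7 and HeCo 16. The list mean of each array, minus that of wild type, differed little among title numbers 1 to 8. It ran there from -0.09 to 0.01 in wild type and from -0.11 to 0.01 in HeCo. Among title numbers 9 to 16 it ran from 0.02 to 0.10 in wild type and from -0.13 to -0.05 in HeCo. At an unadjusted p under 0.05 there was 1 probe (5.26%, against 6.98% of all tested probes). It was of Btrc, a ubiquitin ligase subunit that marks Gli proteins for processing (-0.26, SE 0.09, limma adjusted p = 0.55). Disp1, which releases the lipid-bearing ligand, had -0.20 (SE 0.10). Targets and ventral identity genes were measured for 6 of 12 genes by 11 probes, 6 positive and 5 negative with a median of 0.04, and -0.06 without HeCo 7 and HeCo 16. With the brightest probe of each gene, 3 genes were higher and 3 lower in HeCo, and their mean difference was -0.11. The mean of this list on each array, minus that of wild type, ran from -0.17 to 0.19 in wild type. In HeCo it ran from -0.22 to -0.012, and was lowest on HeCo 7 and HeCo 16. The ventral factor Nkx6-1 had -0.37 (SE 0.15), with detection on 6 of 8 wild-type and 5 of 8 HeCo arrays, and the cell cycle gene Ccnd1 had -0.15 (SE 0.08) at the probe with the smallest p.

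**Figure D4:**
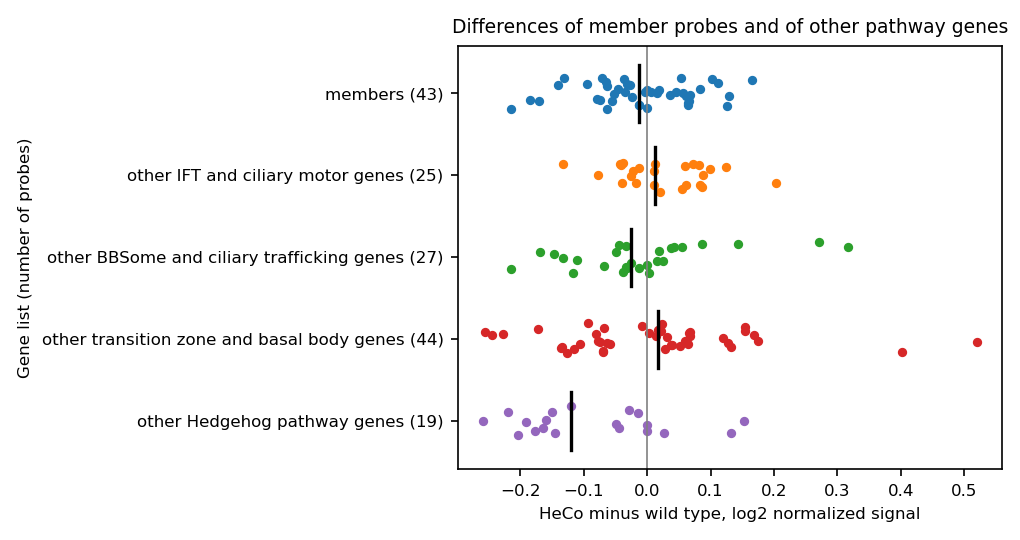
Each point is the HeCo minus wild type difference of 1 tested probe in log2 normalized signal (x axis), by gene list (y axis, number of probes in brackets, points spread vertically for sight), and black bars are medians. Members centre at -0.012 and other Hedgehog pathway genes at -0.12, and the point at 0.52 is Wdpcp, the 1 probe shown that passed.

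Markers of other cells were measured alongside. Choroid plexus markers (9 of 12 measured) had a mean level of 8.13 to 8.58 in wild type and 8.07 to 8.53 in HeCo, and cerebellar granule precursor markers (6 of 11), cells in which Hedgehog signalling is strong, 8.05 to 8.74 and 7.91 to 8.80. Markers of endothelium, blood and meninges (11 of 13) had 10.3 to 10.7 and 10.4 to 10.7. Forebrain markers had 9.53 to 9.76 and 9.54 to 9.89. The ranges of the genotypes overlapped for each of these lists, and 0 of their probes passed (limma). In the order given, 1, 1, 1 and 4 probes had an unadjusted p under 0.05. These were 8.33%, 11.1%, 4.35% and 16.7% of the probes of each list, against 6.98% of all tested probes. Without HeCo 7 and HeCo 16, 1 forebrain marker probe passed. Their part in the member values was not tested.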

How the data were processed

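Signals deposited by the authors are intensities on a linear scale, 1 for each of 45281 probes and array, with no normalization visible. A detection p-value, deposited beside each signal, compares the probe with the negative controls. Per the submitters' processing notes GenomeStudio was used, with no version. The authors' series matrix holds quantile-normalized intensities of the same arrays and served as an alternative. Its 16 columns each correlated best with their own array, and its values lay within 0.0179 (log2) of a quantile normalization of the signals, with column medians of 85.16 to 85.21. The function neqc of limma 3.58.1 (R 4.3.3, offset 16) corrected the background, quantile-normalized the arrays and took log2. The fit (lmFit, then eBayes with a trend) had no covariate and covered the 18532 probes detected (p under 0.05) on 8 arrays or more, with two-sided p-values and Benjamini-Hochberg adjustment over all of them. Symbols came from the platform annotation (34885 probes with 1 symbol, 18 with several, 10378 with none), of which 34807 were updated through Entrez identifiers. Plots were drawn with matplotlib 3.10.9 in Python 3.11.15, and the fit was tested on simulated data.

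The members and gene lists were chosen with earlier results of these data known. Genes given in full are the 8 member probes with the smallest p, all tested Hedgehog probes, members whose probes differ in sign, and those with the highest and lowest spread. Of each other pathway list the 2 genes with the smallest p are named. Some lists hold both an older and a current symbol of a gene, such as Adrbk1 and Grk2, and so cover fewer genes than symbols. Rpgrip1l, the remaining Bbs genes, Foxj1 and the promoter motifs were named after values were seen. Gli1 was planned for the correlations and left out because it was not detected, and within genotypes the exact test replaced the planned resampling. Alternatives were the background correction, normalization, detection filter, 1 probe for each gene, array weights, no trend, the lower and higher title or description numbers as a block and apart, and arrays left out. Gene lists without HeCo 7 and HeCo 16 were chosen after seeing the data.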

Additional observations from a re-analysis of the deposited data

Results flagged for a closer look

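In 86 sets of 8 arrays (43 tested member probes in each genotype), Dixon's test at the 95% level found 5 in which 1 array stood apart from the other 7. Chance alone gives about 5% of such sets. On wild type 4, Ift20 ILMN_2671767 read 6.54, below the next value of 6.81. On wild type 11, Bbs5 ILMN_3162388 read 8.56, above the next value of 8.28. On HeCo 15, the dim Tctn2 probe ILMN_1220993 read 4.86, below the next value of 5.23. On wild type 3, the brighter Ptch1 probe ILMN_2460224 read 7.29, below the next value of 7.54. On HeCo 14, the dim Ptch1 probe ILMN_1248463 read 5.62, above the next value of 5.15. The 5 values lie on 5 different arrays.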

How the results depend on the processing

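No member probe passed under any of the 15 alternatives or with any of the 16 arrays left out. No paired analysis was possible because the genotypes share no replicate numbers. The number of arrays and, for dim probes, signal close to background limit these values. The cause of each change below was not tested beyond the loss of probes or arrays that a setting itself brings. The count over all tested probes, 16 in the main analysis, was 10 with no filter on dim probes, 8 for probes detected on all 16 arrays, 6 with 1 probe for each gene, 5 within title numbers 1 to 8, 5 within 9 to 16, 6 within description numbers 1 to 8 and 4 within 9 to 16. It ran from 7 to 17 with 1 array left out, and was lower by over 1.5 times without wild type 2 (7), 3 (9), 4 (10), 9 (10) or HeCo 5 (9), 13 (10), 14 (9). Median scaling gave 13, of which 84.6% were higher in HeCo against 62.5% in the main analysis, and moved the median of all probes to 0.05 and that of the members to 0.0408, with 32 member probes higher and 11 lower against 20 and 23. Leaving out 1 array moved the members' median from -0.0212 to -0.00257.

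Of the 43 member differences 37 kept their sign without HeCo 7 and HeCo 16, 29 did so among title numbers 1 to 8 and 33 among 9 to 16, and 33 among description numbers 1 to 8 and 36 among 9 to 16. Sign changes, none of which involved a call, are given below only for the probes described in full. With array weights Smo ILMN_2986978 was at -0.03, Gli2 at -0.05, Ift81 ILMN_2735422 at 0.01 and Ift140 ILMN_2496745 at -0.00543. With the series matrix values Smo ILMN_2986978 was at -1e-05 and Gli2 at -0.00061, and with no background correction Gli2 was at -0.00064. With median scaling Ift20 ILMN_2847618 was at 0.02 and Ift81 ILMN_2735422 at 0.06. Without HeCo 7 and HeCo 16 Smo ILMN_2986978 and Gli2 were both at -0.05 and Ift20 ILMN_2671767 at -0.01. Within title numbers 1 to 8 Ptch1 ILMN_1248463 was at -0.16, Smo ILMN_2986978 at -0.04, Smo ILMN_2741614 at -0.01, Ift20 ILMN_2671767 at -0.03, Ift81 ILMN_2735422 at 0.05, Ift140 ILMN_3060168 at 0.03, ILMN_1260493 at 0.0091 and ILMN_2496745 at -0.15. Within 9 to 16 Ptch1 ILMN_2460224 was at -0.0092, Smo ILMN_2741611 at 0.02 and Gli2 at -0.11. Within description numbers 1 to 8 Gli2 was at -0.19, Ift81 ILMN_2735422 at 0.05, Ift140 ILMN_2496745 at -0.07 and Rab8a ILMN_2928051 at 0.02. Within 9 to 16 Ptch1 ILMN_1248463 was at -0.02 and Smo ILMN_2986978 at -0.05. With 1 array left out Ptch1 ILMN_1248463 ran from -0.01 to 0.12, Smo ILMN_2986978 from -0.04 to 0.04, Gli2 from -0.05 to 0.06, Ift81 ILMN_2735422 from -0.03 to 0.04 and Ift140 ILMN_2496745 from -0.02 to 0.12.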
